A study of Mus musculus with 12 samples.

Results

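The genes described here are the 7 mouse genes of the INK4 and CIP/KIP families, which encode the protein inhibitors of the cyclin-dependent kinases that drive the cell cycle. They were taken by symbol, with earlier results of these data known. All 7 were found among the 30399 genes of the deposited table. These are Cdkn1a, Cdkn1b and Cdkn1c of the CIP/KIP family, and Cdkn2a, Cdkn2b, Cdkn2c and Cdkn2d of the INK4 family. All 7 passed the filter on low values. RNA was sequenced from 5 samples labelled normal lung and 7 samples labelled tumor, in a study that modelled lung cancer in mice by CRISPR/Cas9, which disables chosen genes by cutting DNA, delivered without a virus. What is known of the study is that tumor suppressors, Trp53 and Rb1 among them, were edited, but the labels give no edited gene, strain, age, sex, delivery route or cell of origin for any sample. The titles of tumors 3 and 4 share the number 159, those of tumors 5, 6 and 7 share the number 201, and tumors 1 (153) and 2 (156) have their own. The meaning of the number is not stated, so the 7 tumors may not be 7 independent animals, and p-values measure the spread between these samples only.

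Progress from G1 into S phase depends on kinases that phosphorylate the retinoblastoma protein (RB), which then releases E2F transcription factors. INK4 proteins bind Cdk4 and Cdk6 and keep D cyclins from activating them, whereas CIP/KIP proteins bind assembled cyclin and kinase complexes and block above all those of Cdk2. Cdkn2a is unusual in that a pair of promoters and alternative first exons give unrelated proteins, p16Ink4a, which acts on Cdk4 and Cdk6, and p19Arf, which protects p53 from Mdm2. In lung cancer this locus is among the most often silenced or deleted, while human small cell carcinomas, which lack RB function, are known for abundant p16.

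The promoter sequences of the neighbouring pair Cdkn2a and Cdkn2b are shown first, because these genes differed between the tissues in opposite directions. Only the upstream promoter of Cdkn1a, the best known p53 target, is shown with them. Each run covers 250 bases before to 50 bases after a RefSeq start site, is written 5′ to 3′ on the gene's own strand, and is credited to RefSeq with coordinates of build GRCm38.p6, an older build than the authors' GRCm39. Capitals mark matches to an E2F motif in the first sequence and to a p53 motif in the last.
Cdkn2a, upstream start (p19Arf promoter), chr4:89294570-89294869, minus strand: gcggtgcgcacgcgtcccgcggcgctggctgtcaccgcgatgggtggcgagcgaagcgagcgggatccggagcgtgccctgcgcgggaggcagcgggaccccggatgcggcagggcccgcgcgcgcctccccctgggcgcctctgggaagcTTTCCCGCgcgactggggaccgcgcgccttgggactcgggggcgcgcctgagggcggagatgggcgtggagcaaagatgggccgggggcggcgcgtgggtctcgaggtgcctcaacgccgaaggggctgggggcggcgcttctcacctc
Cdkn2a, downstream start (p16Ink4a promoter), chr4:89282143-89282442, minus strand: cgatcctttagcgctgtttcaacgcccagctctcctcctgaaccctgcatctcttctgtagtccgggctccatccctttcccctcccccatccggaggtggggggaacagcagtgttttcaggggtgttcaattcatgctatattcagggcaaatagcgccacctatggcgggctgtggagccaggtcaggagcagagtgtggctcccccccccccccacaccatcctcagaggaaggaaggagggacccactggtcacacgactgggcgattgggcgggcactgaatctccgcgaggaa
Cdkn2b, chr4:89310983-89311282, minus strand: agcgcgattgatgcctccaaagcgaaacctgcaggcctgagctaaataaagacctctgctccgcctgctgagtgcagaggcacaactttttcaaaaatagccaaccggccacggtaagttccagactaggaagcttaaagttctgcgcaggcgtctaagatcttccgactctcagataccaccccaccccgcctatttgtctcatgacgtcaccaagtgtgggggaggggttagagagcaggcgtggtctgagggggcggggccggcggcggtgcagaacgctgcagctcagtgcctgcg
Cdkn1a, upstream start, chr17:29090729-29091028, plus strand: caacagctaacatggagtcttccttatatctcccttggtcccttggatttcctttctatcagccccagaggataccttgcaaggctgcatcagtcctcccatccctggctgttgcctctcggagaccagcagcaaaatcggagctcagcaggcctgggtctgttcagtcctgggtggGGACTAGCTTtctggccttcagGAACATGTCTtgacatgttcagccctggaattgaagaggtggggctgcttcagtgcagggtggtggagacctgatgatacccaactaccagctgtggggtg

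The p19Arf promoter was the richest in G and C of these 4, at 77.0% with 45 CpG dinucleotides, against 60.3% and 12 for the p16Ink4a promoter and 57.7% and 18 for the Cdkn2b promoter. The median over all 32851 promoters of the table was 52.7%. The E2F motif was searched on both strands as TTTCCCGC, TTTCGCGC, TTTGCCGC or TTTGGCGC and was held by 2.26% of all promoters. Among the 9 promoters matched for 6 of the 7 genes it occurred once, at position -99 of the p19Arf promoter, counted from the start site. The p53 motif, the unit that occurs in tandem in p53 response elements, was held by 8.36% of all promoters. It occurred at positions -73 and -51 of the Cdkn1a upstream promoter and at position -102 of the Cdkn2d promoter. The downstream promoter of Cdkn1a, not printed above, held no match, at 64.7% G and C with 23 CpG dinucleotides. These matches describe letters in a window and show no binding.

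The 5 normal lungs held 11126432 to 17032234 reads assigned to genes and the 7 tumors 13093843 to 24217633. The inhibitor genes rested on 24 to 16406 reads per sample, and counting error was largest for Cdkn2a in normal lung, with 24 to 36 reads, and for Cdkn2b in tumor 2, with 50. Values are normalized read counts, that is, reads divided by a size factor for each sample. Marker genes fitted the label normal lung: the summed level of 12 lung epithelium markers ran from 351352 to 572807 in normal lung, against 800.1 to 4199 in tumors. The tumors carried 10 neuroendocrine markers at a summed 41902 to 151340, against 275 to 467 in normal lung, and 10 proliferation markers at 24087 to 53190, against 2074 to 3781. All 10 genes of either list were called higher in tumor. Of 10 endothelial markers all were called lower (80251 to 99588 against 2987 to 8693), as were 11 of 12 leukocyte markers (90505 to 180529 against 308 to 41829), and Sftpa1, Sftpd, Cldn18, Cd3e, Cd8a and S100a8 were among those at 0 in at least 1 tumor. Of 10 fibroblast and smooth muscle markers 4 were called lower and none higher, and their sums overlapped, at 14246 to 31148 in normal lung and 4140 to 37698 for the tumors. Tumor 7 stood apart in its leukocyte sum and fibroblast and smooth muscle sum, both the highest of the tumors, and in a cardiac muscle marker sum of 37925, against 453 to 2727 in the other tumors. Reads of Y-linked genes were abundant in 4 normal lungs of 5 but in only 1 tumor of 7, so the Y-linked level and the tissue are partly confounded. The part of tissue makeup in the differences below was not tested, and in bulk RNA fewer cells of a type cannot be told apart from less RNA per cell.

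Of the 7 inhibitor genes, 6 were called higher in tumor (Cdkn1a, Cdkn1b, Cdkn1c, Cdkn2a, Cdkn2c and Cdkn2d), where 31.4% of all 23674 tested genes were called higher. The remaining gene, Cdkn2b, was called lower, where the background was 30.1%. A call is an adjusted p under 0.05 in limma, a linear model with a shared estimate of spread, fitted to log2(value + 1) over all tested genes. For 5 of the genes every tumor lay above every normal lung (20.1% of tested genes did so), and for Cdkn2b every tumor lay below (18.4%). The median log2 fold change was 1.71 over the 7 genes and 0.04 over all tested genes.

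**Figure D1:**
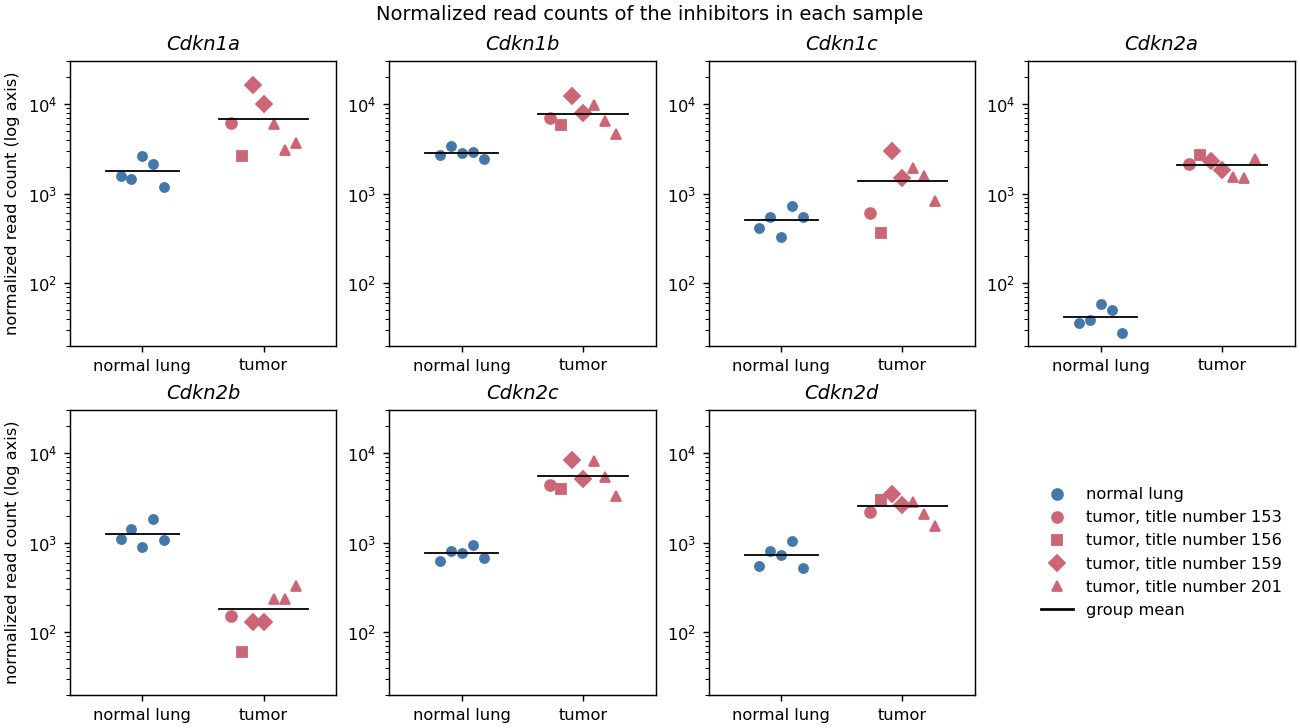
Normalized read counts (vertical log axis) of the 7 inhibitor genes in each of 5 normal lungs and 7 tumors, with marker shapes for the tumor title number and a black line at each group mean. Cdkn2a sits between 27.6 and 58.1 in normal lung and between 1479 and 2664 in tumors, Cdkn2b shows the opposite order, and only Cdkn1c has overlapping groups.

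Among the INK4 genes, Cdkn2a showed the largest difference of the 7. Its normalized read count was 36.1, 38.7, 58.1, 50.8 and 27.6 in normal lungs 1 to 5. Tumors 1 to 7 gave 2127, 2664, 2303, 1847, 1535, 1479 and 2425. The gene was low in all normal lungs and high in every tumor, with no overlap. The means were 42.3 ± 12.2 (SD, n = 5) and 2054 ± 451 (SD, n = 7), a ratio of 48.6. On the log2 scale the tumors were higher by 5.59 (SE 0.22, limma adjusted p = 4.91e-10). The tumors were also the most alike in this gene, their highest value being 1.80 times the lowest. A count over the whole gene cannot split p16Ink4a from p19Arf transcripts, so the values hold for their sum.

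Cdkn2b encodes p15, an INK4 inhibitor best known as a target of transforming growth factor beta signalling, and lies beside Cdkn2a. It gave normalized read counts of 1105, 1401, 883, 1837 and 1074 in normal lungs 1 to 5. Tumors 1 to 7 gave 151, 59.6, 129.9, 131, 234, 237 and 332. Every tumor was below every normal lung, and the 3 highest tumors were those titled 201. The means were 1260.0 ± 372 (SD, n = 5) and 182 ± 90.7 (SD, n = 7), so normal lung was 6.92 times higher. On the log2 scale Cdkn2b fell by 2.91 in tumor (SE 0.36, limma adjusted p = 1.22e-05).

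Cdkn2c encodes p18, an INK4 inhibitor that is itself known as an E2F target. Its normalized read count was 618, 798, 775, 942 and 669 in normal lungs 1 to 5. Tumors 1 to 7 gave 4435, 3997, 8451, 5163, 8160, 5357 and 3291. All tumors were higher, with tumors 3 and 5 at the top and tumor 7 the lowest. The means were 760.4 ± 126 (SD, n = 5) and 5550.4 ± 2007 (SD, n = 7), a log2 difference of 2.80 (SE 0.23, adjusted p = 2.61e-07 in limma).

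Cdkn2d encodes p19Ink4d, the inhibitor of this family that is best known to oscillate with the cell cycle. Normal lungs 1 to 5 held 542, 801, 722, 1035 and 518 normalized read counts, and tumors 1 to 7 held 2199.9, 2989, 3516, 2635, 2808, 2085 and 1545. The groups did not overlap. The means of 724 ± 211 (SD, n = 5) and 2539.5 ± 652 (SD, n = 7) differed by 1.81 on the log2 scale (SE 0.22, limma adjusted p = 1.16e-05).

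Among the CIP/KIP genes, Cdkn1b encodes p27, a brake on Cdk2 whose protein is controlled largely by degradation. Its normalized read count was 2661, 3346, 2817, 2890.4 and 2414 in normal lungs 1 to 5. Tumors 1 to 7 gave 7022, 5818, 12128, 7832, 9819, 6476 and 4631. Every tumor was above the normal range, and the normal lungs were closely spaced. The means were 2826 ± 343 (SD, n = 5) and 7675 ± 2550.4 (SD, n = 7), a log2 difference of 1.38 (SE 0.21, adjusted p = 7.26e-05 in limma). Protein was not measured here.

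Cdkn1a encodes p21, the inhibitor through which p53 halts the cell cycle after DNA damage. It gave 1564, 1445, 2613, 2108 and 1168 normalized read counts in normal lungs 1 to 5. Tumors 1 to 7 gave 6173, 2622, 16265, 9890, 5968, 3059 and 3676. The groups barely separated, since tumor 2, at 2622, was just above normal lung 3, at 2613, and the 2 tumors titled 159 were the highest. The means were 1780 ± 578 (SD, n = 5) and 6808 ± 4855 (SD, n = 7), a log2 difference of 1.71 (SE 0.41, adjusted p = 0.00247 in limma). Among the tumors the highest value was 6.20 times the lowest.

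Cdkn1c encodes p57, an imprinted inhibitor expressed from the maternal copy and active in differentiating cells. Its normalized read count was 417, 548, 326, 732 and 540 in normal lungs 1 to 5. Tumors 1 to 7 gave 614, 361, 2996, 1488, 1907, 1565 and 817. Tumors 1 and 2 lay within the normal range, and the other tumors lay above it. The means were 513 ± 153 (SD, n = 5) and 1393 ± 902 (SD, n = 7), a log2 difference of 1.20 (SE 0.44, adjusted p = 0.0313 in limma). This call was the weakest of the 7 and was lost in 9 of 23 other settings. Leaving out normal lung 1, normal lung 3, or tumor 3, 4, 5 or 6 gave adjusted p-values of 0.0649, 0.079, 0.0542, 0.0569, 0.0609 and 0.0563 in that order. With tumors of the same title number averaged the log2 fold change was 0.85 (limma adjusted p = 0.133), with the title number as a correlated block 1.07 (0.0663), and with Y-linked expression as covariate 1.14 (0.134). The annotation places a gene on the opposite strand over exons of Cdkn1c and of Cdkn1a, and since use of the strand in counting is not stated, reads of those partners cannot be told apart from these genes.

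**Figure D2:**
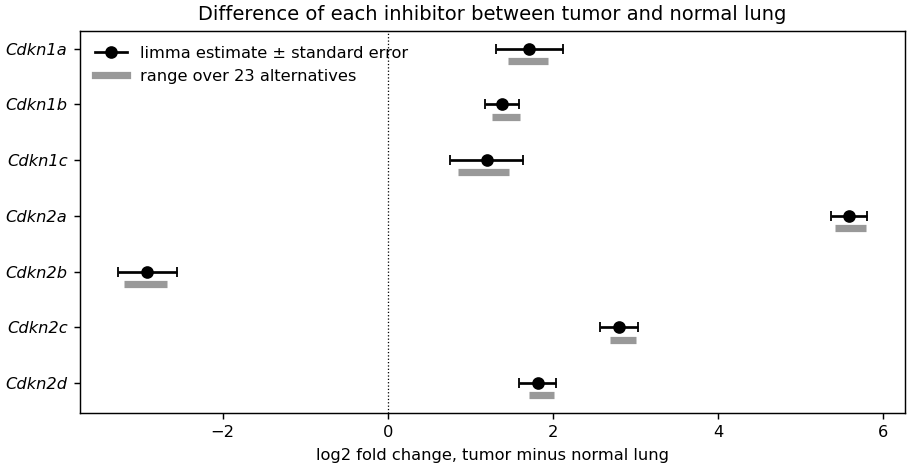
Log2 fold change (tumor minus normal lung, horizontal axis) of each inhibitor gene from limma, with its standard error, over a grey bar that spans the estimates in 23 other settings. Cdkn2a lies at 5.59, Cdkn2b alone lies below 0 at -2.91, and Cdkn1c at 1.20 is the only gene with calls lost.

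The rise of Cdkn2a and the fall of Cdkn2b changed the makeup of the family. To compare levels between genes, each value was divided by the length of the gene's annotated exons in kb. In normal lung Cdkn2b had the highest mean, at 906 ± 267 normalized reads per kb (SD, n = 5). Cdkn1b followed at 621 ± 75.4, below Cdkn2b in 5 of 5 lungs. In normal lung 3, however, Cdkn1a, at 735, was above Cdkn2b, at 636. Cdkn1a (501 ± 163) and Cdkn2d (460 ± 134) did not differ beyond their spread, Cdkn1a being the higher in 2 of 5. Cdkn2c (283 ± 46.9) and Cdkn1c (251 ± 75.3) were likewise close, Cdkn2c being the higher in 3 of 5. Cdkn2a was the lowest in all 5, at 36.1 ± 10.4.

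In tumors, by exon length, 5 genes formed an upper group whose neighbours changed places from tumor to tumor. These were Cdkn2c at 2066 ± 747 normalized reads per kb (SD, n = 7), Cdkn1a at 1916 ± 1366, Cdkn2a at 1753 ± 385, Cdkn1b at 1686 ± 560 and Cdkn2d at 1613 ± 414. Each exceeded the next in 4, 3, 3 and 6 of 7 tumors, so their order is not resolved. Cdkn1c (683 ± 442) was below Cdkn2d in 7 of 7, and Cdkn2b (131 ± 65.3) was the lowest in 7 of 7. The sum over the 7 genes was 3058 ± 584 per kb in normal lung and 9849 ± 3152 in tumors, and the ranges, 2499 to 3961 and 6967 to 16150, did not overlap.

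As a percentage of that sum, Cdkn2b made up 29.4% ± 4.54 (SD, n = 5) in normal lung and 1.49% ± 1.03 (SD, n = 7) in tumors, and Cdkn2a 1.18% ± 0.294 and 19.3% ± 7.49. Cdkn2c went from 9.30% ± 0.554 to 20.9% ± 3.89. The shares of Cdkn1a (16.5% ± 5.03 and 17.9% ± 7.37) and Cdkn2d (14.8% ± 1.59 and 16.8% ± 3.42) overlapped between the tissues. So did the 4 INK4 genes together, at 54.7% ± 4.20 and 58.5% ± 8.76. With the coding length in place of the exon length, Cdkn1b made up 31.8% and Cdkn2b 21.2% in normal lung, so Cdkn2b was no longer the highest there. In tumors Cdkn1b then made up 27.5% and Cdkn1a 27.4%, against 11.0% for Cdkn2d and 7.01% for Cdkn2a. The shares, the order of the genes and the upper group of 5 in tumors thus depend on the length used.

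**Figure D3:**
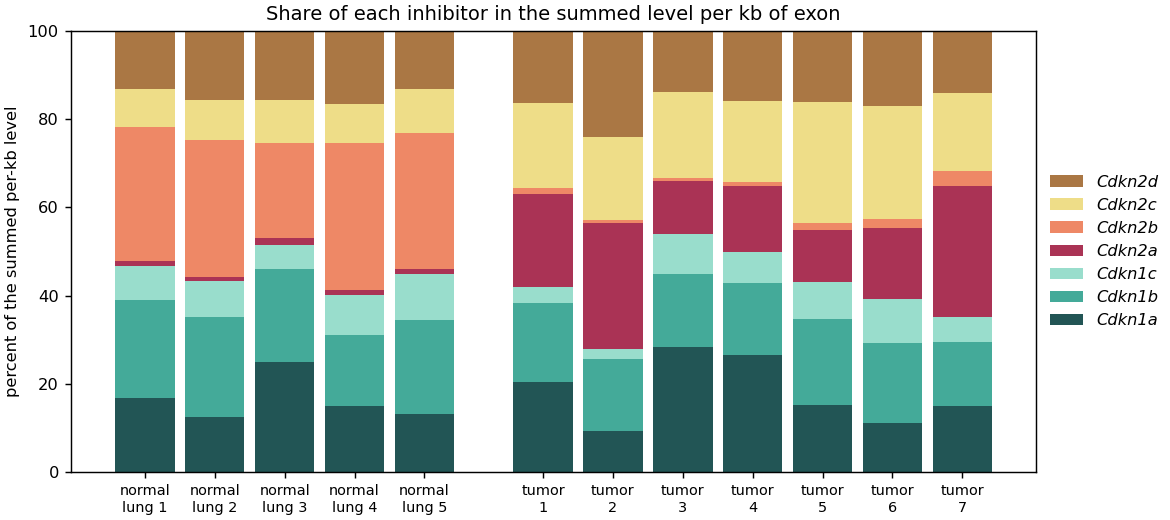
Stacked bars of the percentage that each inhibitor gene contributed to the summed level per kb of the 7 genes, 1 bar for each of the 12 samples. The Cdkn2b segment takes 21.6% to 33.4% of the bars of normal lung and 0.543% to 3.43% of the tumor bars, and the Cdkn2a segment takes 11.8% to 29.7% of the tumor bars.

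Cdkn2a and Cdkn2b are neighbours on chromosome 4, and their ratio was compared within each sample. In normal lung Cdkn2b was 12.8 to 32.8 times as high as Cdkn2a per kb. In tumors the order was reversed, Cdkn2a being 16.7, 53.04, 21.03, 16.7, 7.78, 7.40 and 8.67 times as high as Cdkn2b in tumors 1 to 7. The ratios were lowest in the 3 tumors titled 201, and the highest, in tumor 2, rests on 50 reads of Cdkn2b. The genes on either side of the pair, looked at after their values were seen, also differed in direction. Mtap, which encodes a methionine salvage enzyme often deleted together with CDKN2A in human cancers, was 447 ± 78.8 (SD, n = 5) in normal lung and 262 ± 106 (SD, n = 7) in tumors, and its log2 value fell by 0.84 (SE 0.26, limma adjusted p = 0.0126). Dmrta1, a transcription factor gene beyond Cdkn2b, averaged 11.9 ± 7.04 in normal lung against 203 ± 103 in tumors, higher by 3.96 on the log2 scale (SE 0.44, limma adjusted p = 4.76e-06). The means of the 4 adjacent genes thus alternated, lower, higher, lower and higher in tumor. For Mtap the groups overlapped, with tumor 7, at 467, inside the normal range of 361 to 564. The normal lung values of Dmrta1, 4.60 to 23.7, rest on few reads. Mtap and Dmrta1 were not followed through the other settings.

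**Figure D4:**
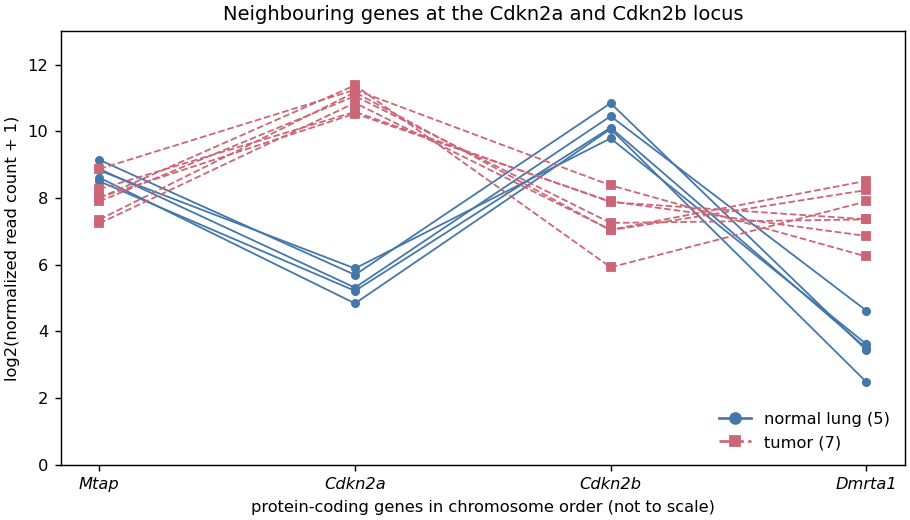
Log2(value + 1) of Mtap, Cdkn2a, Cdkn2b and Dmrta1 in chromosome order (horizontal axis, not to distance), with 1 line per sample coloured by tissue. The lines of the tissues cross between Cdkn2a and Cdkn2b, where the log2 fold change passes from 5.59 to -2.91.

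The flanking genes of Cdkn1c, part of an imprinted cluster, were set beside it in the same way. Of 7 tested genes in this cluster 2 were called higher and 3 lower in tumor, and 2 were not called, with a median log2 fold change of 0.72. For so few genes these counts are near the background of 31.4% and 30.1%. Kcnq1, a potassium channel gene on one side, fell by 2.63 (limma adjusted p = 3.96e-05), and Phlda2, a maternally expressed growth regulator on the other, fell by 2.98 (adjusted p = 1.42e-05), with tumor values of 1.19 to 4.72 that rest on few reads. Slc22a18, which lies between Cdkn1c and Phlda2, fell by 2.16 (adjusted p = 0.0075), a call lost with the Y-linked covariate (adjusted p = 0.0833). Nap1l4, a histone chaperone gene, was higher by 0.86 (adjusted p = 4.24e-04), and Cars was higher by 0.72 (adjusted p = 0.0133). The call of Cars was lost with same-numbered tumors averaged or with the Y-linked covariate (adjusted p = 0.134 with the covariate). Either setting left 1 higher call. H19, a non-coding RNA of the adjoining imprinted domain, ran from 3.87 to 699 in normal lung, against 12.03 to 384 in tumors, and was not called (adjusted p = 0.565).

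The spread among the tumors differed from gene to gene. The SD of log2 values over the tumors was 1.05 for Cdkn1c, 0.95 for Cdkn1a and 0.80 for Cdkn2b, against 0.33 for Cdkn2a and 0.39 for Cdkn2d. The median over the 7 genes was 0.51 in tumors and 0.41 in normal lung, and over all tested genes it was 0.63 and 0.35. Over the tested genes whose group means summed to over 200, as those of all 7 did, it was 0.46 in tumors and 0.24 in normal lung, so among tumors the median of the 7 genes lay below the first and above the second. Tumor 3 had the highest value of Cdkn1a, Cdkn1b, Cdkn1c, Cdkn2c and Cdkn2d. Tumor 7 had the lowest of Cdkn1b, Cdkn2c and Cdkn2d and the highest of Cdkn2b, and tumor 2 had the lowest of Cdkn1a, Cdkn1c and Cdkn2b and the highest of Cdkn2a. Tumor 7 also had the highest leukocyte and cardiac marker sums and the lowest neuroendocrine and proliferation sums of the tumors, and the part of these in its values was not tested. Leaving out tumor 7 ended no call of the 7 genes.

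Titles of 6 tumors name a site in Spanish, the lung in tumors 3, 4, 5 and 6 and the trachea in tumors 1 and 7. With 2 against 4 tumors, and with title numbers shared among them, no test was made. Cdkn1c was 614 and 817 in the trachea-titled tumors and 1488 to 2996 in the lung-titled tumors, and Cdkn2c was 3291 and 4435 against 5163 to 8451. The ranges of the other 5 genes overlapped. Of all tested genes, 11.0% had both trachea-titled tumors below all lung-titled tumors and 6.80% had them above.

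For each inhibitor gene the genes nearest in pattern over the 12 samples were found among 14000 genes, as the root mean square difference of log2 values centred on each gene's mean. This is a description with no test, and the distance takes in the difference between the tissues. Nearest to Cdkn2c were Rrm1, a subunit of ribonucleotide reductase, at 0.22, and Lancl2 at 0.24. Nearest to Cdkn1b were Taf5 and Pias2, both at 0.16, and nearest to Cdkn2d were Ranbp1 at 0.17 and Abhd8 at 0.18. Cdkn2b was nearest to Six5 (0.27) and Lactb2 (0.31), and Cdkn1a to Gadd45g, a stress-response gene, (0.37) and Gfi1 (0.44). Cdkn2a was nearest to Amer2 (0.42) and Syngr3 (0.44), and Cdkn1c to C2cd4b and Tmeff2 (both 0.41).

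The kinases and cyclins that these proteins bind were then set beside them, as lists of known partners. The background for this and every list below is that of all tested genes, 31.4% called higher and 30.1% called lower. Of the 5 genes for the INK4 targets and their cyclins, Cdk4 alone was called higher and the other 4 were called lower, with a median log2 fold change of -2.27. Cdk4, the main INK4 target kinase, was 1057 ± 194 (SD, n = 5) in normal lung and 2236 ± 307 (SD, n = 7) in tumors, a log2 fold change of 1.08 (SE 0.15, limma adjusted p = 3.12e-05). Ccnd1 (cyclin D1) was 2310.3 ± 71.2 in normal lung and 109 ± 69.8 in tumors and fell by 4.65 (adjusted p = 2.96e-07), and Ccnd2 fell by 4.62 (adjusted p = 9.16e-05). Ccnd3 fell by 1.67 (adjusted p = 0.00225), with tumor 7, at 3934, inside the normal range of 2683 to 4549. Cdk6 was 1450 to 2220 in normal lung and 96.5 to 981 in 6 tumors, but 3245 in tumor 1. This difference (log2 fold change -2.27, SE 0.68, limma adjusted p = 0.0106) was no longer called by edgeR on the recovered reads or with the Y-linked covariate, where its adjusted p reached 0.228.

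All 8 genes for the CIP/KIP target kinases and their cyclins were called higher and lay above the normal range in every tumor, with a median log2 fold change of 3.69. Of all tested genes 31.4% were called higher and 20.1% lay above the normal range in every tumor. Cdk2 rose from 489 ± 51.1 (SD, n = 5) to 1629 ± 420.1 (SD, n = 7), a log2 fold change of 1.70 (SE 0.18, limma adjusted p = 2.90e-06). The largest differences were those of the mitotic pair Cdk1 (5.68, adjusted p = 8.77e-09) and Ccnb1 (5.53, adjusted p = 1.02e-07). The 10 proliferation markers given above were higher in the same tumors.

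Of 11 pocket protein and E2F genes, which act below the kinases, 8 were called higher, 1 lower and 2 neither, with a median of 1.63. E2f7 and E2f8, repressors of the E2F family, were higher by 5.44 (limma adjusted p = 1.77e-08) and 4.89 (adjusted p = 7.48e-09). Rb1 ran from 111 to 173 in normal lung, against 286 to 462 in tumors, higher by 1.43 in log2 (SE 0.18, limma adjusted p = 1.28e-05). A read count over a whole gene does not show small edits, so it is no check of whether Rb1 was disrupted. E2f5 fell by 0.55 (adjusted p = 0.0401), a call lost in 13 of 23 other settings, and E2f4 was -0.29 (adjusted p = 0.11).

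Of 8 genes for the ligases that mark p27 for degradation, 7 were called higher and none lower, with a median of 0.98. Skp2, the receptor that binds p27, was 104 ± 28.7 (SD, n = 5) in normal lung and 1167 ± 261 (SD, n = 7) in tumors, a log2 fold change of 3.48 (SE 0.20, limma adjusted p = 1.22e-08). Its cofactor family member Cks2 was higher by 3.08 (adjusted p = 1.15e-07). Skp1, the adaptor of the ligase, was -0.12 (adjusted p = 0.676), and its sign changed in 3 other settings.

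Of 11 Polycomb genes, whose products silence the INK4 locus in many cell types, 8 were called higher and 3 lower, with a median of 0.54. Ezh2, the methyltransferase, ran from 131 to 234 in normal lung, against 823 to 2656 in tumors (log2 fold change 3.26, SE 0.26, limma adjusted p = 1.85e-07), and Cbx2, a reader of its mark, was higher by 3.57 (adjusted p = 1.39e-08). Ezh1 fell by 1.48 (adjusted p = 5.53e-07) and Ring1 by 0.99 (adjusted p = 9.11e-05). Cbx7, known as a repressor of Cdkn2a, also fell by 0.99 (adjusted p = 1.24e-04). With the Y-linked covariate only 4 of the 11 were called higher.

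Of 16 transcription factors and partners that act on the inhibitor genes, 3 were called higher and 8 lower, with a median of -0.56. Kmt2a (1.35, limma adjusted p = 2.88e-05) and Zbtb17, which encodes the Cdkn2b and Cdkn1a activator Miz1 (1.13, adjusted p = 2.05e-04), were the highest. Cebpa fell by 4.72 (adjusted p = 5.64e-06) and Klf4, an activator of Cdkn1a, fell by 2.89 (adjusted p = 4.63e-05). Both are expressed in lung epithelium, whose markers were low in the tumors, and its part was not tested. Trp53 ran from 683 to 1028 in normal lung, against 859.7 to 1712 in tumors and was not called (0.38, adjusted p = 0.106). It was called with all columns scaled to the same total and without the trachea-titled tumors. As with Rb1, the read count is no check of whether Trp53 was disrupted.

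Of 16 known p53 targets, which include Cdkn1a, 3 were called higher, 6 lower and 7 neither, with a median of -0.08. Of all tested genes 31.4% were called higher and 30.1% lower, and with 16 genes no excess either way was read from these counts. Besides Cdkn1a the genes called higher were Gtse1, a regulator of p53 in G2 phase (4.54, limma adjusted p = 1.01e-08), and Zmat3 (1.47, adjusted p = 1.59e-04). Phlda3 fell by 2.70 (adjusted p = 3.69e-05) and Plk2 fell by 2.01 (adjusted p = 9.84e-07). Mdm2, both a target and the ligase of p53, was 0.13 (adjusted p = 0.46). These counts moved with the scaling and with the samples included: with columns scaled to the same total 5 were called higher and 3 lower, without the trachea-titled tumors 5 were higher, and without normal lung 4 only 3 were lower.

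Of 7 further genes named as inhibitors or binders of cyclin-dependent kinases, 3 were called higher and 2 lower, with a median of 0.51. For so few genes these counts are near the background of 31.4% and 30.1%. Cdkn3, a phosphatase that acts on Cdk2, was 19.8 ± 5.50 (SD, n = 5) in normal lung and 131 ± 37.4 (SD, n = 7) in tumors, a log2 fold change of 2.66 (SE 0.29, limma adjusted p = 3.36e-06), and Cdk2ap1 was higher by 2.04 (adjusted p = 1.05e-06). Cdk2ap2 fell by 1.501 (adjusted p = 1.96e-04) and Hexim1, an inhibitor of the transcriptional kinase complex P-TEFb, fell by 0.64 (adjusted p = 6.03e-04). With columns scaled to the same total 5 of these 7 were called higher.

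**Figure D5:**
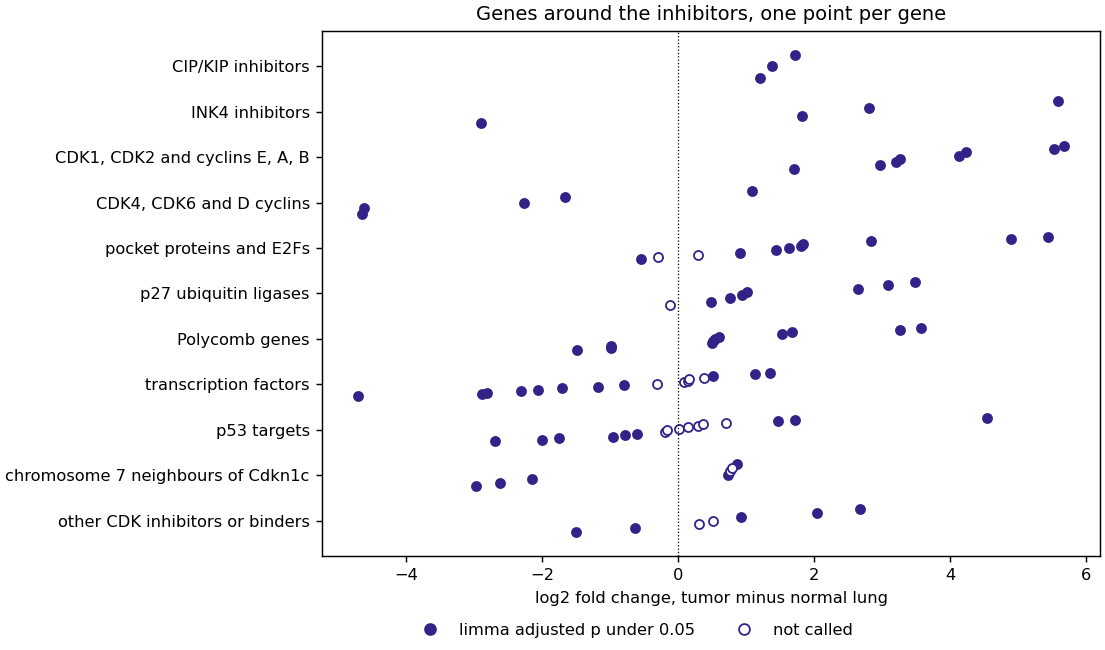
Log2 fold change (tumor minus normal lung) of each gene of the lists of inhibitors, partners and regulators, 1 point per gene, filled where the limma adjusted p is under 0.05. The 8 genes for CIP/KIP target kinases and their cyclins all lie above 0 (median 3.69). Of the 5 genes for INK4 target kinases and D cyclins, 4 lie below it (median -2.27).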

How the data were processed

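Poly-A RNA of 5 normal lungs and 7 tumors was sequenced as paired reads on an Illumina NovaSeq, per the labels' protocols. featureCounts, DESeq2 and build GRCm39 are named, per the submitters' processing notes; the aligner, the annotation and the use of strand are not given in the sources used here. The deposited values are a signal of reads divided by a size factor per sample, not by length. This was worked out from the values, 100% of which were whole multiples (tolerance 0.01 reads) of the worth of 1 read. Of 31 same-group pairs of libraries none was a duplicate: chi-square per degree of freedom was 18.4 or more.

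Symbols came from GENCODE M21, which named 29982 of 30399 identifiers, and exon lengths from the same release. The 23674 genes whose mean reached 1 entered the test, on log2(value + 1), which understates the change of low genes, with limma 3.58.1 (R 4.3.3; lmFit, eBayes with trend) and Benjamini-Hochberg adjustment over all of them. Recovered reads were tested with edgeR 4.0.16 and DESeq2 1.42.0 as alternatives. The limma and edgeR fits were run on simulated counts with few changed genes and equal spread in both groups. Those settings differ from the data, so the calls here draw no support from that run. Summaries and figures used Python 3.11.15, numpy 2.4.6, pandas 2.3.3 and matplotlib 3.10.9. At these depths 3 reads equal a value of up to 4.85 in normal lung and 3.57 in tumors, for counting error only.

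Groups follow the tissue label, and replicate numbers follow the order of listing. The members, lists and motifs were chosen with earlier results of these data known. Genes named are the 7 members, up to 2 with the largest difference in each direction of each list, Cdk4, Cdk6, Cdk2, Ccnd1, Rb1, Trp53, Skp2 and Ezh2 by role, and the 2 nearest in pattern to each member. Neighbours on the chromosome, Ccnd3, Cars, Slc22a18, Mdm2, Zmat3 and Cbx7 were named after their values were seen. Lists were described by counts and medians. Kcnq1ot1 and Igf2 were not analysed here.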

Additional observations from a re-analysis of the deposited data

Results flagged for a closer look

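Single samples far from the rest of their group were looked for in 67 named genes, over 133 groups of 5 or 7 samples, and 9 were found. Chance alone gives about 1 in 20, or 6.65 here. None of the 7 inhibitor genes was among them. The values are normalized read counts. Cdk4 was 1624 in tumor 7, against 2175 to 2615 in the other tumors. Cdk2 was 579.8 in normal lung 3, against 458 to 473 in the others, and Cdk1 was 23.7 in normal lung 2, against 41.4 to 51.7. E2f4 was 1651 in tumor 2, against 916 to 1126 in the other tumors; without that tumor E2f4 was called lower (limma adjusted p = 0.00883). Cebpa was 1822 in tumor 7, against 101 to 285. H19 was 699 in normal lung 3, against 3.87 to 14.0 in the other normal lungs, and without that lung it was called higher in tumor (2.02, limma adjusted p = 0.0481). Lactb2, the second nearest gene to Cdkn2b in pattern, was 777 in normal lung 3, against 869.8 to 909 in the others. Slc22a18 was 3.57 in tumor 2, about the worth of 3 reads, against 29.7 to 83.9. Ap1m2, a neighbour of Cdkn2d that encodes a subunit of an epithelial sorting complex, was 536 in tumor 1, against 0.991 to 17.96 in the other tumors.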

How the results depend on the processing

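Over 23 alternatives the log2 fold changes of Cdkn1a (1.46 to 1.94), Cdkn1b (1.26 to 1.61), Cdkn2a (5.41 to 5.79), Cdkn2b (-3.19 to -2.67), Cdkn2c (2.69 to 3.01) and Cdkn2d (1.71 to 2.02) kept their sign and stayed called. Cdkn1c kept its sign and was called in 14. It was not called with same-numbered tumors averaged (0.85), with the title number as a correlated block (1.07), or with Y-linked expression as covariate (1.14), and ran from 0.96 to 1.47 when each sample was left out in turn. Equal column totals moved the median log2 fold change of all tested genes from 0.04 to 0.23, and the split of calls from 7430 higher and 7124 lower to 8594 and 6129. Of 11 pocket protein and E2F genes, called lower were 1 at first, 0 with equal totals, quantile normalization, averaged tumors, the Y-linked covariate or the trachea-titled tumors left out, and 0 to 2 when each sample was left out. The other lists' counts that moved by over 1.5 times were 8 to 4 (Polycomb genes higher, Y-linked covariate), 2 to 1 (imprinted neighbours higher, averaged tumors or Y-linked covariate), 3 to 5 (p53 targets higher, equal totals or no trachea-titled tumors; further inhibitors higher, equal totals) and 6 to 3 (p53 targets lower, equal totals or without normal lung 4). The causes were not tested. No paired analysis was possible because the labels give the groups no shared replicate numbers. Depth limited Cdkn2a in normal lung most, at 24 to 36 reads, and Cdkn2b in tumor 2, at 50.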
